A study of Arabidopsis thaliana with 8 samples.

Results

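Bright array spots of 25 genes whose difference between wild-type Arabidopsis thaliana and a tatA antisense line stayed within set limits, after each array was centred on its median, were described. They were taken from 3439 spots on 8 single-colour arrays and were selected on their measured intensities. A spot had to be assigned to 1 gene (692 spots), and its mean intensity over the 4 wild-type arrays had to be at least 1.5, which left 73. Of these, 28 had a difference between tatA and wild type inside the limits of the rule, and 3 of the 28 were set aside by name, among 9 genes set aside in all. The differences that chose the genes are given as a description. Calls of a test on the same contrast are given only beside the share of all rows called, and nothing is read from them.

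Wild type (WT) and the tatA line were both of ecotype Columbia 0, and total RNA of 4 samples of each was measured, 1 sample per array. The tatA line carries an antisense construct and is also called a mutant in the sample labels. Its target encodes part of the twin-arginine translocase, which moves folded proteins across the thylakoid membrane. The promoter of the construct, the number of lines, the plant age and the tissue are not given in the labels, and no label says that the 4 samples of a group came from separate plants. The transcript of TATA is not analysed here, so no level of the targeted gene stands beside these values.

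Genes with steady transcripts are used in plant studies as internal references, against which other transcripts are scaled. Usual choices encode actin, tubulin, ubiquitin, elongation factors and subunits of protein phosphatases. In a leaf cell, steady and abundant transcripts also come from genes of primary metabolism, of membrane transport and of the care of RNA and proteins. An array spot reports the level of 1 transcript relative to the same spot on other arrays. Its brightness also depends on the probe and the label, so brightness does not rank 2 genes by transcript level.

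To apply the limits, 0.1 was added to each intensity, log2 was taken and the median of the array over all spots was subtracted. This is called the centred scale below. The mean tatA value minus the mean WT value had to lie between -0.5 and 0.8, once in replicates 1 and 2 and once in replicates 3 and 4. Among the 73 bright single-gene spots, 39 that were not set aside by name fell outside, 33 below the lower limit and 6 above the upper one.

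**Figure D1:**
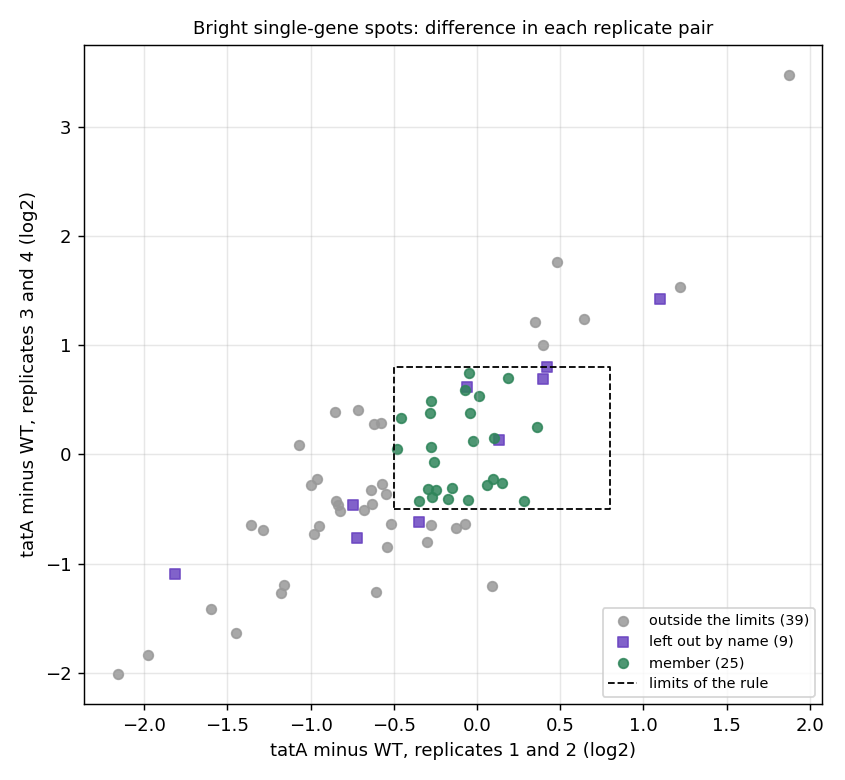
Difference between tatA and WT on the centred log2 scale in replicates 1 and 2 (horizontal) and in replicates 3 and 4 (vertical), for the 73 single-gene spots with a mean WT intensity of at least 1.5. Each point is a spot, and the dashed square marks the limits of -0.5 and 0.8. The 25 genes described lie inside it, 39 spots lie outside, and 9 were set aside by name.

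The genes closest to the upper limit were AT3G52070, with 0.74 in replicates 3 and 4, AT2G19280, with 0.70, and AT5G63290, with 0.59. The genes closest to the lower limit were CYN, with -0.48 in replicates 1 and 2, AT4G18180, with -0.45, and AT1G73740, with -0.43 in replicates 3 and 4. Just below the lower limit lay CUTA (-0.55), AT4G16410 (-0.57) and AT1G01500 (-0.58), each in replicates 1 and 2. Of the spots not set aside by name, the nearest above the upper limit were AT4G19900 (0.998), AT3G47650 (1.21) and AT3G09850 (1.24), each in replicates 3 and 4. LHB1B2, which was set aside by name, lay at 0.801 in replicates 3 and 4. AT3G09850 was at the upper end of the intensity scale, 100, on all 4 tatA arrays, so its difference would be understated if brighter values were cut off there. Spots with a suitable difference but too dim were led by AT1G67800, AT3G49740 and AT2G40980, with mean WT intensities of 1.497, 1.437 and 1.428.

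Mean intensity of the 25 genes ran from 1.501 to 33.0 in WT (median 2.09) and from 0.974 to 24.2 in tatA (median 1.80). None of their 200 values was at 0 or at the upper end of the scale. On the deposited scale the tatA mean was below the WT mean for 22 of the 25 and above it for 3, and the ratio of tatA to WT means ran from 0.605 to 1.12. The limits were set on the centred scale, and the name of steady genes does not carry over to the deposited scale for all of them. On the centred scale the difference was negative for 15 and positive for 10, between -0.39 and 0.44, with a median of -0.06. The median over all 3439 spots on that scale was -0.03. In RNA of whole samples, fewer cells that express a gene and less of its RNA per cell cannot be told apart.

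**Figure D2:**
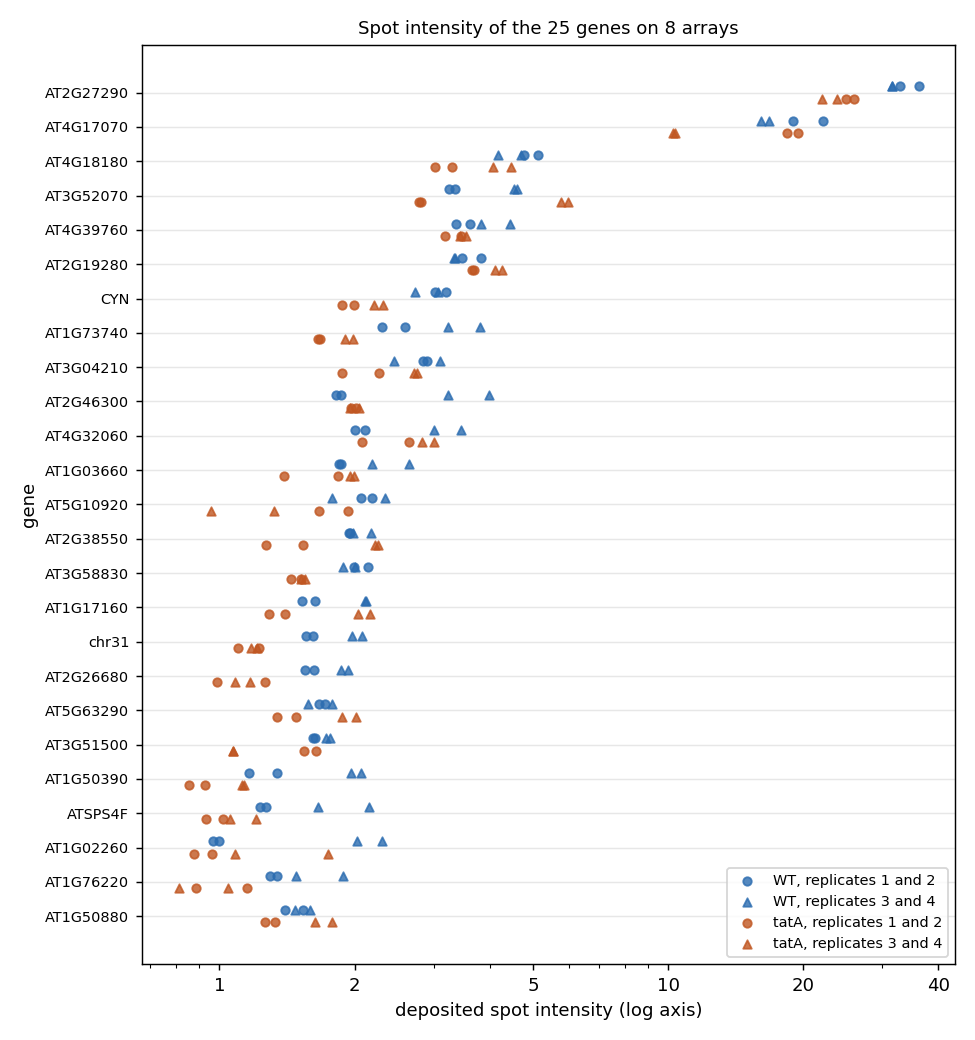
Deposited spot intensity (log axis) of each of the 25 genes on each array, WT in blue and tatA in orange, with circles for replicates 1 and 2 and triangles for replicates 3 and 4. AT2G27290 and AT4G17070 lie above 10 on every array, and the other 23 genes lie between 0.812 and 5.97.

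Of the 25 genes, 9 encode enzymes of metabolism, and on the centred scale 7 of these had a negative difference and 2 a positive one, with a median of -0.22. Over all 25 genes 15 were negative and 10 positive, with a median of -0.06. Roles were assigned from general knowledge, and the split by role was not tested. CYN encodes cyanase, which breaks cyanate down to ammonia and carbon dioxide. Its intensity was 3.20, 3.02, 2.72 and 3.08 in WT replicates 1 to 4 and 1.87, 1.99, 2.32 and 2.21 in tatA replicates 1 to 4. All 4 tatA arrays were below all 4 WT arrays, with means of 2.10 ± 0.204 against 3.004 ± 0.202 (SD, n = 4 arrays). On the centred scale the groups of CYN overlapped, since the difference was -0.48 in replicates 1 and 2 and 0.05 in replicates 3 and 4.

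AT4G18180, a protein of the pectin lyase superfamily that acts on cell wall pectin, had intensities of 5.125, 4.78, 4.17 and 4.69 in WT. In tatA they were 3.30, 3.03, 4.08 and 4.46. The tatA replicates 1 and 2 were lower than every WT array, while replicates 3 and 4 lay among or just below the lower WT values. The centred difference accordingly was -0.45 in the first pair and 0.34 in the second.

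AT1G73740, of the glycosyltransferase superfamily, had the most negative centred difference of the 25 genes, at -0.39. WT arrays read 2.59, 2.30, 3.80 and 3.23, and tatA arrays read 1.66, 1.67, 1.98 and 1.90. No tatA value reached the lowest WT value, on the deposited or on the centred scale. Both genotypes were brighter in replicates 3 and 4, with a pair mean of 3.52 against 2.45 in WT and of 1.94 against 1.67 in tatA.

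AT5G10920 encodes argininosuccinate lyase, the last enzyme of arginine synthesis. Its WT values were 2.19, 2.06, 1.78 and 2.34, and its tatA values were 1.67, 1.94, 0.959 and 1.32. Only tatA replicate 2 overlapped the WT range, and the centred difference was -0.05 in replicates 1 and 2 and -0.41 in replicates 3 and 4. ATSPS4F, a sucrose phosphate synthase, which makes the precursor of sucrose in the cytosol, had means of 1.58 ± 0.428 in WT and 1.05 ± 0.114 in tatA (SD, n = 4 arrays). Its 4 tatA values, 0.934, 1.02, 1.06 and 1.21, lay below the lowest WT value of 1.23. On the centred scale the groups of ATSPS4F overlapped, with a difference of -0.23.

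AT3G58830 encodes a plastid phosphatase that completes the synthesis of phosphatidylglycerol, the main phospholipid of thylakoids. Its values were tight within both groups, at 2.14, 1.999, 1.88 and 2.001 in WT and 1.52, 1.44, 1.52 and 1.55 in tatA. The groups did not overlap on the deposited scale, where the ratio of tatA to WT means was 0.752. After centring they overlapped, with a difference of -0.11.

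A pair of sugar kinases of the pfkB family was also among these enzymes. AT1G17160, a ribokinase, had WT values of 1.53, 1.63, 2.12 and 2.11 and tatA values of 1.40, 1.29, 2.17 and 2.04. In both genotypes replicates 3 and 4 were brighter than replicates 1 and 2, and within a pair the intensities of the genotypes were close. The centred differences of AT1G17160 were -0.04 and 0.38, so after centring tatA lay above WT in the second pair. AT1G50390 had 1.16, 1.35, 2.07 and 1.96 in WT and 0.926, 0.856, 1.12 and 1.14 in tatA, so that WT replicate 1 stood just above the highest tatA value. Its centred difference was -0.33, and the groups overlapped on that scale.

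AT5G63290, a protein of the radical SAM superfamily that resembles the oxygen-independent coproporphyrinogen oxidase of bacteria, was the enzyme gene with the most positive centred difference, 0.26. WT values were 1.72, 1.67, 1.58 and 1.78, and tatA values were 1.48, 1.34, 2.01 and 1.88. The tatA pairs lay on either side of WT, with means of 1.41 and 1.95, and the mean over 4 arrays was 1.68 ± 0.319 against 1.69 ± 0.0860 in WT (SD, n = 4 arrays).

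Genes of membrane transport numbered 3. AT4G32060 encodes a regulator of calcium uptake into mitochondria, and its means were 2.64 ± 0.705 in WT and 2.64 ± 0.402 in tatA (SD, n = 4 arrays). The WT arrays read 2.11, 2.001, 3.46 and 3.003, and the tatA arrays read 2.65, 2.08, 3.01 and 2.83. In WT the spread lay between replicates 1 and 2 on the one hand and 3 and 4 on the other, while in tatA replicates 1 and 2 differed from each other (0.31 on the centred log2 scale) more than the pairs did (0.27). After centring, tatA lay 0.31 above WT.

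AT2G38550, of the fatty acid export family of the plastid envelope, had WT values of 1.96, 1.94, 2.17 and 1.98. Its tatA values were 1.53, 1.27, 2.22 and 2.25, below WT in the first pair and above the highest WT value in the second. AT1G02260, of a family of divalent ion symporters, was the most variable of the 25 genes, with a mean SD within groups of 0.44 on the centred log2 scale. WT arrays read 0.996, 0.966, 2.31 and 2.02, and tatA arrays read 0.963, 0.880, 1.08 and 1.75. In the first pair the intensities of the genotypes were alike, and in the second only tatA replicate 4 came near WT. After centring, tatA replicate 4 lay above both WT arrays of the second pair. The centred differences were 0.10 and -0.22.

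Proteins that act on nucleic acids or on other proteins were encoded by 4 genes. AT4G17070, annotated as a peptidyl-prolyl isomerase, which helps proteins to fold, had intensities of 19.0, 22.1, 16.1 and 16.8 in WT and 18.4, 19.4, 10.4 and 10.2 in tatA. In replicates 1 and 2 the genotypes overlapped, and in replicates 3 and 4 the tatA values were the lowest of all. On the centred scale its differences were 0.06 and -0.28, and replicates 3 and 4 lay below replicates 1 and 2 by 0.56 in WT and by 0.90 in tatA (means of 16.4 against 20.6, and of 10.3 against 18.9).

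AT2G19280, of the pentatricopeptide repeat family of organelle RNA-binding proteins, had the most positive centred difference, 0.44. Its values were 3.83, 3.48, 3.33 and 3.35 in WT and 3.69, 3.65, 4.11 and 4.25 in tatA. The groups overlapped on the deposited scale, through WT replicate 1, but not on the centred scale. Counted from the brightest of the 3439 spots, the spot ranked 127, 147, 151 and 151 on the WT arrays and 89, 91, 94 and 90 on the tatA arrays, so its place among the spots moved up on every tatA array.

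AT4G39760, of the family with an F-box and kelch repeats that picks proteins for breakdown, was one of the 3 genes with the smallest spread within groups (mean SD 0.07 on the centred log2 scale). WT arrays read 3.62, 3.37, 4.44 and 3.83, and tatA arrays read 3.45, 3.18, 3.55 and 3.43. The groups overlapped, and the centred difference was 0.10 in the first pair and 0.15 in the second.

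The gene chr31 (AT1G05490) encodes a chromatin remodelling protein of the CLASSY family, which acts in RNA-directed DNA methylation. Its values were 1.62, 1.56, 2.08 and 1.97 in WT and 1.10, 1.22, 1.21 and 1.18 in tatA. The groups did not overlap on the deposited, centred or quantile-normalized scale, and the centred difference was -0.24 in one pair and -0.33 in the other, with a mean SD within groups of 0.06. Both adjacent spot numbers were brighter than chr31 on the WT arrays. Spot 4112 had means of 4.34 in WT and 1.26 in tatA, spot 4114 had 2.93 and 3.24, and their part in the value of chr31 was not tested. Of the 24 genes with an adjacent spot number in the table, AT2G38550 was the only other one that had an adjacent spot number brighter than itself (mean WT intensity 2.08 against 2.01).

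Defence and stress families were represented by 2 genes. AT3G04210, a protein with the TIR and nucleotide-binding domains of disease resistance receptors, had 2.90, 2.84, 3.11 and 2.45 in WT and 1.88, 2.27, 2.75 and 2.72 in tatA. The centred difference was -0.28 in the first pair and 0.38 in the second, which average to 0.05. AT2G46300, of the late embryogenesis abundant hydroxyproline-rich family, had 1.87, 1.82, 3.23 and 3.99 in WT and 1.97, 2.02, 2.04 and 1.95 in tatA. Its tatA values were the most uniform of the 25 genes (coefficient of variation 2.15%), while the WT values differed between pairs (39.2%).

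For 7 genes no role is given here. AT2G27290 was the brightest of them, with 32.8, 36.1, 31.5 and 31.5 in WT and 24.9, 25.9, 22.1 and 23.8 in tatA. All tatA arrays were below all WT arrays, at means of 24.2 ± 1.66 and 33.0 ± 2.18 (SD, n = 4 arrays), a ratio of 0.733. On the centred scale the difference was -0.26 in the first pair and -0.07 in the second, and the groups overlapped. The spot ranked 7, 7, 7 and 8 on the WT arrays and 10, 10, 13 and 13 on the tatA arrays.

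AT3G52070 had 3.35, 3.24, 4.54 and 4.59 in WT and 2.79, 2.81, 5.76 and 5.97 in tatA. The tatA values were the lowest of the 8 in one pair and the highest in the other, and the centred differences were -0.05 and 0.74. AT3G51500 was low in the second tatA pair instead, with 1.62, 1.63, 1.76 and 1.73 in WT and 1.55, 1.64, 1.07 and 1.07 in tatA. Its centred differences were 0.15 and -0.26.

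AT2G26680 had 1.63, 1.55, 1.87 and 1.93 in WT and 0.986, 1.26, 1.17 and 1.08 in tatA. Like chr31 it had non-overlapping groups on the deposited and centred scales and a small spread, with centred differences of -0.29 and -0.32. AT1G03660 had 1.87, 1.85, 2.64 and 2.19 in WT and 1.39, 1.84, 1.998 and 1.95 in tatA, with overlapping groups and a centred difference of 0.05. On the deposited scale AT1G76220 (means of 1.503 and 0.974) lay lower on all tatA arrays than on any WT array, but its groups overlapped after centring. AT1G50880 had means of 1.501 in WT and 1.503 in tatA, with 1.26 and 1.33 in the first tatA pair and 1.78 and 1.64 in the second. The centred differences of AT1G50880 were 0.01 and 0.54.

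How steady these transcripts appear depended on how the arrays were brought to a common scale. Median intensity over all spots was 0.429 to 0.531 on the WT arrays and 0.365 to 0.390 on the tatA arrays. Without normalization the median of the 25 log2 differences was -0.37, beside -0.47 for the 3261 rows tested. It was -0.06 on the centred scale, 0.03 with the 75th percentile of each array as reference, and -0.06 after quantile normalization, beside -0.07, -0.08 and -0.09 for the tested rows. The sign of the difference turned between the centred and the deposited scale for 7 genes.

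On the deposited scale 9 of the 25 genes had all tatA values below all WT values, where 33.8% of tested rows did, and 0 had all tatA values above, where 9.29% did. The 9 were AT2G27290, CYN, AT1G73740, AT3G58830, chr31, AT2G26680, AT1G50390, ATSPS4F and AT1G76220. On the centred scale 3 were below (AT1G73740, chr31 and AT2G26680; 19.2% of tested rows) and AT2G19280 was above (16.8%). After quantile normalization AT2G27290 and chr31 were below (18.9%), and AT2G19280, AT5G63290 and AT1G50880 were above (16.6%). The rule used this contrast, so these counts describe the chosen genes only. With the limits applied to each replicate pair under another scaling, an alternative chosen after seeing the data, 12 of the 25 genes were still inside on the deposited scale and 13 were below the lower limit. After quantile normalization 20 were inside and 5 were below it, namely AT2G27290 in both pairs (-0.80 and -0.96) and AT4G17070 (-0.87), AT1G73740 (-0.58), AT2G46300 (-0.60) and AT5G10920 (-0.52) in replicates 3 and 4. With the 75th percentile as reference 23 were inside, and AT3G52070 (0.87) and AT2G19280 (0.84) were above the upper limit in replicates 3 and 4. The mean over both pairs was below -0.5 for 8 genes on the deposited scale and for AT2G27290 alone after quantile normalization (-0.88, against -0.16 on the centred scale). Quantile normalization replaces a value by the one that belongs to its rank. The rank of AT2G27290 among all spots was 7 or 8 on the WT arrays and between 10 and 13 on the tatA arrays. Its part in the quantile-normalized difference was not tested.

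**Figure D3:**
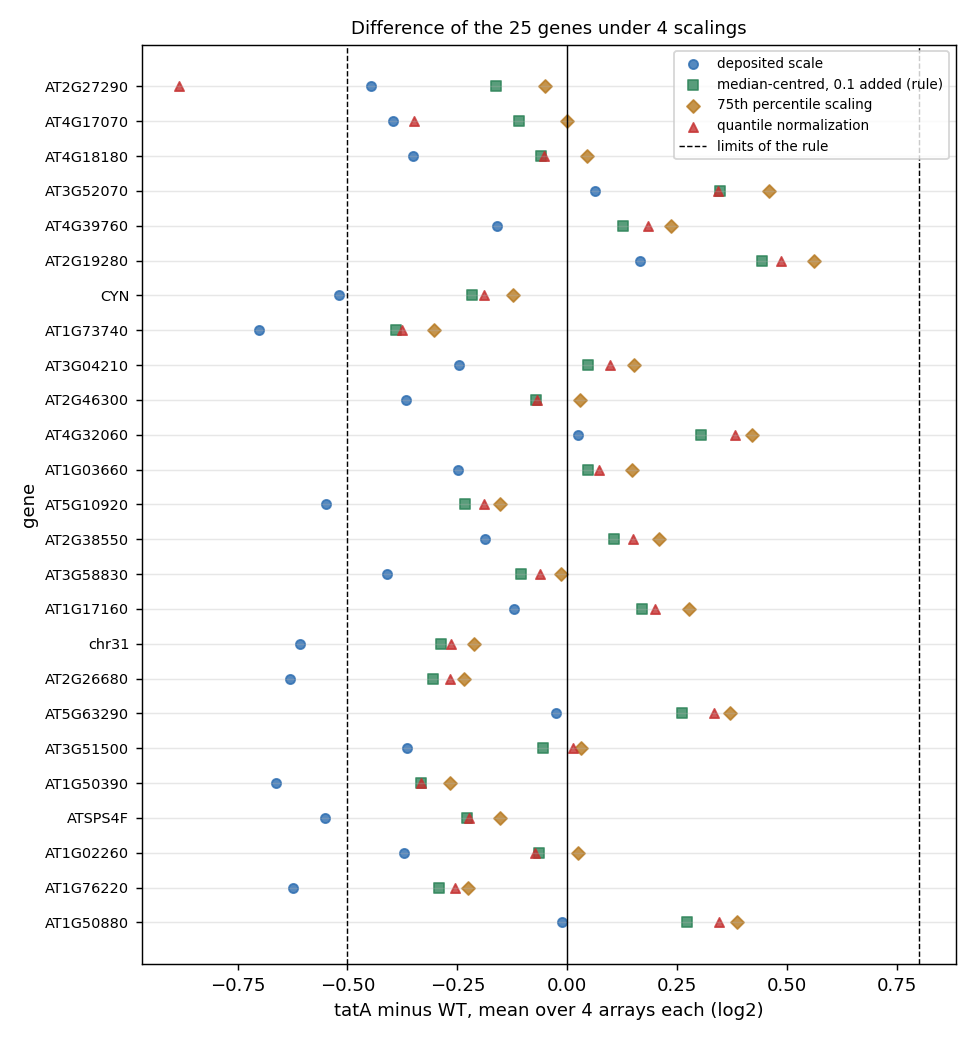
Mean tatA minus mean WT log2 intensity (4 arrays each) of the 25 genes under 4 scalings, with the limits of the rule as dashed lines. The deposited scale lies left of the other 3 scalings for 24 genes, with a median of -0.37 against -0.06 on the centred scale, and AT2G27290 alone has its quantile-normalized value, -0.88, furthest left.

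As a share of the summed intensity of all spots, the 25 genes made up 2.92% to 3.05% on the WT arrays and 2.47% to 2.78% on the tatA arrays. The 2 brightest spots, AT2G27290 and AT4G17070, held 1.29% to 1.65% and 0.970% to 1.46% of it. The other 23 held 1.39% to 1.63% in WT and 1.32% to 1.53% in tatA, ranges that overlap. The sums include spots at the upper end of the scale. If brighter values were cut off there, the sums would be too low and these shares too high.

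Within a group, arrays 1 and 2 were alike and so were arrays 3 and 4, and no label says what separates these pairs. Across the 25 genes the median absolute log2 difference between arrays of a pair was 0.08 and 0.16 in WT and 0.10 and 0.05 in tatA. For the 619 single-gene spots under the intensity minimum it was 0.13, 0.15, 0.20 and 0.18, and for the 48 other bright single-gene spots 0.11, 0.11, 0.12 and 0.11. Between pairs of the same genotype, the 25 genes shifted by a median of 0.30 in WT and 0.27 in tatA, and all spots by 0.29 and 0.24. The absolute difference between genotypes, which the rule bounds, had a median of 0.22 in the 25 genes.

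The shift from replicates 1 and 2 to replicates 3 and 4 was larger than the difference between genotypes in 15 genes for WT, in 13 for tatA and in 9 for both. The rule bounds the difference between genotypes, and the shift rests on fewer arrays per mean. No count over other spots is given, so these counts describe the chosen genes only. The shift went up in both genotypes for 9 genes, down in both for 4 and opposite ways for 12. The largest were those of AT3G52070 in tatA (1.01), AT4G17070 in tatA (-0.90) and AT1G02260 in WT (0.82). For 13 of the 25 genes the difference between genotypes had opposite signs in the 2 pairs, being negative first in 9 and positive first in 4. For 8 it was negative in both pairs and for 4 it was positive in both (AT4G39760, AT2G19280, AT4G32060 and AT1G50880). The mean near 0 of several genes, such as AT4G18180 and AT3G04210, was therefore an average of differences of opposite sign.

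**Figure D4:**
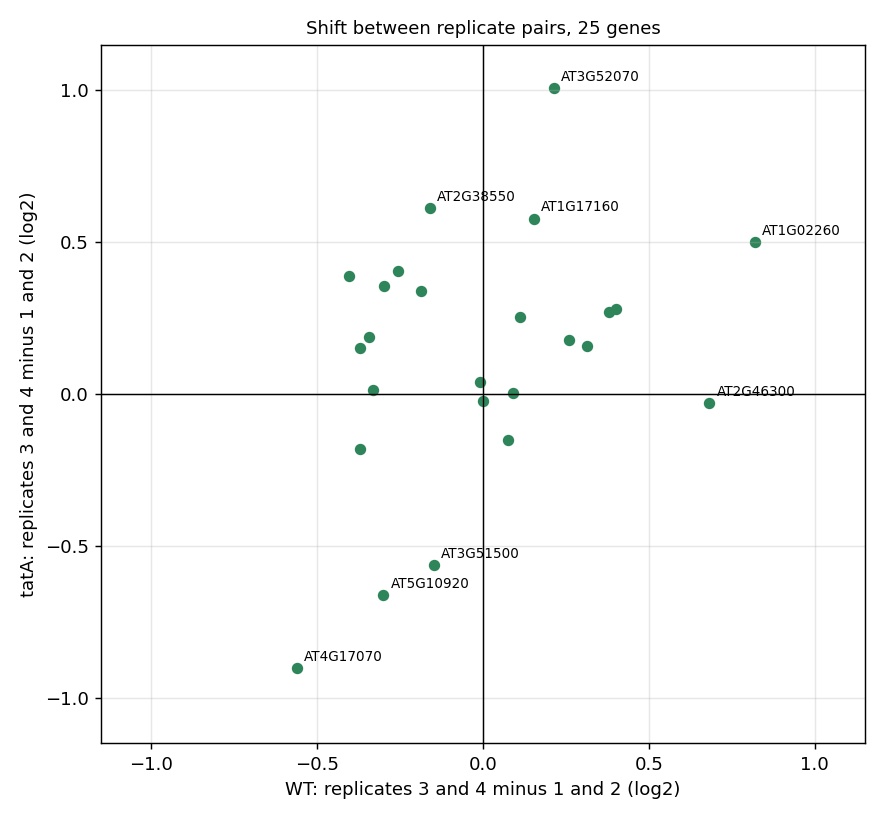
Shift of each of the 25 genes from replicates 1 and 2 to replicates 3 and 4 on the centred log2 scale, in WT (horizontal) and in tatA (vertical). Names are given for the 8 genes with a shift over 0.5 in size in either genotype. AT4G17070 is low in both, AT1G02260 is high in both, and 12 genes lie in the quadrants of opposite shifts.

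In limma's test over all 3261 rows after quantile normalization, 3 of the 25 genes passed a Benjamini-Hochberg adjusted p under 0.05, where 32.1% of tested rows did. They were AT2G19280 and AT1G50880, higher in tatA, and AT2G27290, lower. The rule used the same contrast, so nothing is read from this count. With tatA replicate 2 left out 5 passed, beside 28.6% of rows, and with pairs of replicates as random blocks AT2G19280 and AT2G27290 did, beside 16.5% of rows. On the deposited scale 9 passed, beside 42.6% of rows, and these were the 9 genes whose groups did not overlap on that scale. With centred values 4 passed, beside 34.8% of rows, with AT2G19280 higher and AT1G73740, chr31 and AT2G26680 lower. All 4 calls were lost on that scale with pairs as random blocks in limma, where 17.5% of rows passed the adjusted threshold. In that fit 2 of the 25 genes had an unadjusted limma p under 0.05. The share of all rows at the unadjusted threshold is not given, so nothing is read from that count.

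None of the 25 genes stood in a list of 33 genes that are commonly used as references in Arabidopsis. Lists were searched among the single-gene spots only, and spots assigned to several genes were not searched. A single gene of the reference list was named there, AT2G28390 of the SAND family, and it was too dim for the rule. Its mean intensity was 0.391 ± 0.0795 in WT and 0.452 ± 0.0985 in tatA (SD, n = 4 arrays). Its centred difference was 0.30 in the first pair and 0.60 in the second. Of lists of markers for root (8 genes), pollen (8) and seed (11), 0 genes were named among the single-gene spots. Of 22 genes listed for green tissue, 2 were named among them. LHB1B2, a light-harvesting chlorophyll protein gene, had 6.43 ± 1.31 in WT and 8.01 ± 0.701 in tatA (SD, n = 4 arrays). The other, AT1G29070, encodes a plastid ribosomal protein and is no marker of a tissue on its own. Of the listed genes found among these spots, only LHB1B2 bears on the tissue.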

How the data were processed

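The deposited values, 1 column per array, are a spot intensity on a linear scale that runs from 0 to 100 over 3439 spots. How the authors obtained and scaled this intensity is not stated in the labels. Groups and replicate numbers came from the sample titles. Gene names came from GEO's platform annotation. Through the gene identifier 24 of the 25 genes matched a locus of RefSeq (TAIR10.1), and AT1G03660 matched through its locus tag. Roles are general knowledge, since the tables hold no descriptions, and keyword classes took in only chr31.

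For the fit, 177 spots at 0 on more than 4 arrays were left out, remaining zeros became the lowest positive value on their array, log2 was taken and arrays were quantile-normalized. Single-gene spots that share a gene were averaged into a single row. The groups were then tested over 3261 rows with limma 3.58.1 (R 4.3.3, intensity trend, two-sided, group as the only term), which was also tested on simulated data. Its p-values measure only the spread between these arrays. The alternatives in the closing section changed the scaling, zeros, filter, trend, blocks and arrays used. The genes and lists were chosen with earlier results of these data known. Every gene could be named, and values on all arrays were set for the 12 brightest, those nearest 0 or a limit and those of largest and smallest spread. Those of other genes were added after their values were seen. Figures were drawn with matplotlib 3.10.9.

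Deviations from the group means correlated at 0.266 to 0.337 between same-numbered WT and tatA arrays and at -0.241 to 0.131 between unlike numbers, so the number was used as a block in an alternative fit. No label says what a number marks.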

Additional observations from a re-analysis of the deposited data

How the results depend on the processing

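The median difference of the 25 genes on the centred scale was -0.06 and stayed between -0.09 and -0.03 with any 1 array left out. It moved by more than the SD over tatA arrays (0.05) on the deposited scale with 0.1 added (-0.35), with 0.1 added and the 75th percentile as reference (0.0075, and 0.03 without the 0.1) and in replicates 3 and 4 alone (0.049). Of the 25 single differences, 21 moved by more than the spread within groups on the deposited scale and 11 in each pair alone. With the 75th percentile 2 did, and under quantile normalization 1 did. The deposited scale and the 75th percentile each moved all 25 by a single amount, so those counts only reflect how small the spread of a gene was. Each pair alone moves a gene equally far in opposite directions, so the same 11 genes are counted. With any 1 array left out 0 moved that far. Dropping 1 of 4 values cannot move a mean by more than this spread, so nothing is read from that count.

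The number of the 25 genes passing in limma was 3. It was 9 on the deposited scale, 9 with pair as a fixed block (added after seeing the data; 40.6% of all rows passed there), and 2 to 5 with 1 array left out (5 without tatA replicate 2). It was 0 with each pair averaged, and 0 on the centred scale with the pairs as a random block (added after seeing the data). In the latter fit 2 genes each had an unadjusted limma p under 0.05, without a share of all rows to set beside them. Over all 3261 rows 1046 passed, 499 higher and 547 lower. This became 310 higher and 1080 lower on the deposited scale. It became 537 with the pairs as a random block, 570 with that block on the centred scale, 57 with pairs averaged, and 788 to 947 with 1 array left out. With replicate number as a fixed block 1027 rows passed and 3 of the 25 genes did, AT3G52070 in place of AT1G50880. Averaging pairs leaves 2 values per group, and the causes of the other moves were not tested. The number of arrays limits the precision of all values.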
